A study of Rattus norvegicus with 9 samples.

Results

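RNA from the bone of ovariectomised rats given astragaloside IV (AS-IV), a saponin of Astragalus root, was compared by mRNA sequencing with RNA from the bone of sham-operated rats. The members of the comparison are libraries, taken by their column names in the count table: 3 named OVX-AS-IV-High (AS-IV) and 3 named Sham, which are 6 of the 9 samples of the series. Female Sprague-Dawley rats were bought at 8 weeks of age; OVX and AS-IV rats had both ovaries removed, whereas Sham rats kept theirs and lost only some fat at surgery. From 6 weeks after surgery, rats were dosed by daily oral gavage for 8 weeks, the AS-IV group with 80 mg/kg in carboxymethylcellulose sodium (CMC-Na) and the others with CMC-Na alone. The labels give CMC-Na at 1%, 2% and 3% for Sham replicates 1, 2 and 3, where the methods give 1%, and the sources used here do not give the time of day at which femurs were collected. The 3 OVX libraries, from vehicle-dosed ovariectomised rats, stand beside the comparison so that a difference from Sham that ovariectomy leaves in place under treatment can be separated from a difference that appears only with treatment.

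Ovaries are the main source of circulating oestrogen, and their removal speeds bone resorption, raises the fat content of the marrow and changes its blood-forming cells. Bone prepared whole holds osteoblasts, osteocytes and osteoclasts together with marrow, vessels, nerve and whatever muscle remains attached. Most of these cells also run a circadian clock, in which Bmal1 with Clock or Npas2 switches on Per, Cry and Nr1d1 genes, whose proteins then shut their own activators down, so that the level of each clock transcript depends on the hour.

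The 9 libraries held between 34874880 and 37298250 counts, and 16874 of 23026 genes passed the filter on low counts. Of the markers chosen for bone, those of osteoblasts (Bglap, Col1a1, Ibsp, Alpl and Sp7), osteocytes (Sost, Dmp1, Mepe and Phex) and osteoclasts (Ctsk, Acp5, Calcr and Ocstamp) had counts in every library, as did the Hba-a1 gene of red cells, Mpo of neutrophils, Adipoq of fat cells and Matn1 of cartilage. The most abundant osteoblast transcript per length was Sparc, with a mean of 1388 FPKM, and the most abundant transcript of any list was the haemoglobin chain Hba-a1 with 59372 FPKM, so the tissue was bone with its marrow. Skeletal muscle transcripts were present too: 20 of the 21 listed genes were in the files (Mylpf was not), the most abundant, Acta1, averaged 667 FPKM, and the list summed to 15070.5, 11114 and 2589 CPM (counts scaled to the size of each library) in Sham replicates 1 to 3. The same sum was 5695, 3089 and 2614 CPM in OVX and 8032, 3478 and 959.9 CPM in AS-IV. Sham replicates 1 and 2 were thus far above Sham replicate 3, and AS-IV replicate 3 was the lowest of the 9; all library values follow the order of replicates 1 to 3. No gene of the muscle list passed both thresholds defined next, although its median log2 fold change (log2FC) from Sham was -1.17 under AS-IV and -1.13 in OVX. Acta1 alone read 2608, 2256 and 368 CPM in Sham rats, 789.9, 376 and 345 in OVX rats and 1428, 434 and 137 in AS-IV rats, with a log2FC of -1.39 (p 0.139). Acta1 met the kept rule without Sham replicate 3 or AS-IV replicate 1 (log2FC -1.87 and -2.61). The value nearest 0 with 1 library left out was -0.90 without AS-IV replicate 3 for Acta1.

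A differentially expressed gene (DEG) had an unadjusted p under 0.05 by edgeR's quasi-likelihood test, fitted on all 9 libraries, and an absolute log2FC over 1. AS-IV against Sham gave 531 DEGs of 16874 genes tested (3.15%), of which 188 were higher (1.11%) and 343 lower (2.03%) under AS-IV. After Benjamini-Hochberg adjustment over all genes the same edgeR test left 0 genes (0%) under 0.05, with the smallest adjusted p at 0.0639, while 2978 genes (17.6%) had an unadjusted p under 0.05, 1547 of them higher (9.17%) and 1431 lower (8.48%). On the same question DESeq2 called 1021 genes at an adjusted p under 0.05, and limma on log2 FPKM called 2 with a pseudocount of 1 and 5 with a pseudocount of 0.1. The DEG count was 862 without Sham replicate 3 (262 higher, 600 lower) and 940 without AS-IV replicate 1 (225 and 715). With the mean level of the muscle list as a covariate 204 were higher and 231 lower, and without Sham replicate 1 these were 241 and 242. The adjusted count was 5 without Sham replicate 3, 5 without OVX replicate 3, 12 without AS-IV replicate 1 and 141 without AS-IV replicate 3. The DEGs are therefore calls at an unadjusted p.

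Ovariectomy without treatment gave 525 DEGs against the same Sham libraries (3.11%), and AS-IV against OVX gave 1089 genes with an unadjusted p under 0.05 (6.45%). A change was counted as kept under AS-IV when a gene was a DEG with the same sign in AS-IV and in OVX against Sham, and as seen only under AS-IV when it was a DEG against Sham in AS-IV but not in OVX and also had a p under 0.05 against OVX with the same sign. The kept rule was met by 229 genes (1.36%), 91 higher and 138 lower, and the other by 60 genes (0.356%), 22 higher and 38 lower. The remaining 242 DEGs met neither rule and are called undetermined: all 242 had the same sign in OVX, where 37 had a p under 0.05 against Sham and 205 did not. No gene was a DEG in both comparisons with opposite signs. Of the 525 OVX DEGs, 296 were not DEGs under AS-IV; 286 of these still had the same sign, and 59 had a p under 0.05 against OVX in the opposite direction. The kept count was 545 without Sham replicate 3 (154 higher, 391 lower) and 206 without Sham replicate 1 (105 and 101). With the mean level of the muscle list as a covariate it was 167 (85 and 82). The count seen only under AS-IV was 122 without AS-IV replicate 1 (29 higher, 93 lower) and 93 without AS-IV replicate 3 (53 and 40). It was 96 with that covariate (49 and 47), 76 without Sham replicate 1 (40 and 36) and 200 at a fold threshold of 0.58 (151 and 49). Deviations of OVX and AS-IV libraries of 1 replicate number correlated weakly, at 0.310, 0.158 and 0.130. OVX replicate 2 correlated more with AS-IV replicate 3 (0.178), and the labels do not say that the numbers pair rats. With the replicate number as a block 1310 genes had a p under 0.05 by edgeR between AS-IV and OVX, 963 of them among the 1089. In that fit 72 met the rule for changes only under AS-IV, 47 of them among the 60. Because Sham enters both comparisons, the shared count carries no test, and the values of each comparison are given side by side.

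**Figure D1:**
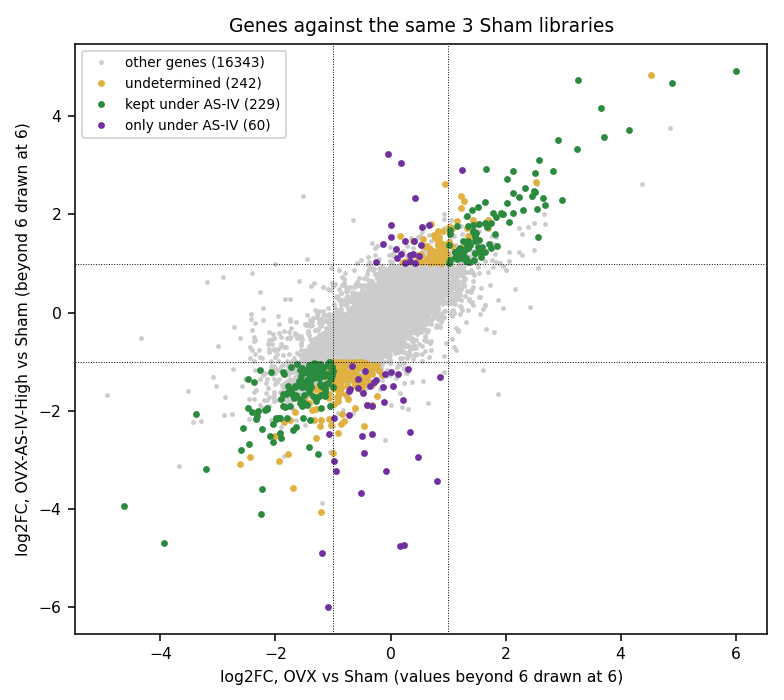
Each point is 1 tested gene, placed by its log2FC in OVX vs Sham (horizontal axis) and in OVX-AS-IV-High vs Sham (vertical axis), coloured by class. The 229 kept genes lie toward the corners with equal signs, and the 60 genes seen only under AS-IV lie above and below the centre.

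Of the 229 kept genes, 124 had the larger absolute log2FC under AS-IV, and 5 had a p under 0.05 between AS-IV and OVX. The 3 AS-IV libraries lay above or below all 3 Sham libraries for 181 of them, beside 3354 of all genes (19.9%), but the rule used these libraries. Relative to the Sham mean, the median log2 CPM of the 91 higher genes was -0.16, 0.00 and 0.088 across Sham itself, 1.44, 1.66 and 1.51 in OVX and 1.33, 1.63 and 1.68 in AS-IV. The 138 lower genes varied more inside Sham: their median was 0.33, 0.20 and -0.40 across Sham itself, -1.06, -1.37 and -1.64 in OVX and -1.17, -1.42 and -1.75 in AS-IV. Sham replicate 3, the Sham library with the least muscle RNA, was thus the lowest of the Sham libraries for the lower genes, and AS-IV replicate 3, with the least muscle RNA of all, had the lowest median; with the muscle list's mean level as a covariate 167 genes met the kept rule, 104 of them among the 229. The part of muscle RNA in these values was not tested.

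Adipoq (Entrez gene 246253) encodes adiponectin, a hormone that fat cells secrete, and read 32.6, 28.5 and 75.3 CPM in Sham rats, 104, 110.1 and 133 in OVX rats and 91.3, 188 and 185 in AS-IV rats. Every AS-IV library and every OVX library was above every Sham library, and Sham replicate 3 was the highest of its group. This is a log2FC of 1.77 (SE 0.39, p 0.00130, adjusted p 0.107) for AS-IV, against 1.35 for OVX. Retn (Entrez gene 246250), which encodes the adipokine resistin, read 20, 13.2 and 12.5 CPM in Sham rats, 34.1, 55.8 and 32.6 in OVX rats and 112, 41.4 and 41.7 in AS-IV rats, again with no overlap between Sham and the others and with AS-IV replicate 1 standing highest. Its log2FC of 2.09 (SE 0.42, p 0.000632, adjusted p 0.1) stood beside 1.42 in OVX. Lep, the gene of the satiety hormone leptin, read 1.24, 2.14 and 1.94 CPM in Sham rats, 6.49, 19.4 and 5.51 in OVX rats and 3.85, 5.28 and 6.27 in AS-IV rats, so that both ovariectomised groups were above Sham and OVX replicate 2 was the highest library. Its log2FC from Sham was 1.53 under AS-IV (p 0.0107, adjusted p 0.167 by edgeR) and 2.56 in OVX, and the difference between AS-IV and OVX had a p of 0.0534. In bulk RNA, more fat cells and more RNA per fat cell cannot be told apart. Lep changed class by limma with a pseudocount of 1.

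Plin1, whose product perilipin coats the lipid droplets of fat cells, read 31.8, 27.5 and 42.1 CPM in Sham rats, 53.7, 85.7 and 80.8 in OVX rats and 48.7, 93.6 and 97.2 in AS-IV rats, with all AS-IV and OVX libraries above the Sham range and a log2FC of 1.24 under AS-IV and 1.12 in OVX. The glycerol channel gene Aqp7 had a log2FC of 1.38 under AS-IV and 1.33 in OVX, with every ovariectomised library above Sham. The droplet proteins Cidea and Cidec were at the edge of the thresholds, with log2FC of 1.02 (p 0.00293) and 1.02 (p 0.0496). Plin1 was undetermined without Sham replicate 2 or OVX replicate 2 (OVX vs Sham log2FC 0.999 and 0.99). Cidea was not called without Sham replicate 1, Sham replicate 3 or AS-IV replicate 3 (log2FC 0.91, 0.99 and 0.79) and was undetermined without OVX replicate 2 (OVX vs Sham log2FC 0.87). Cidec was not called without Sham replicate 1, Sham replicate 2, AS-IV replicate 2 or AS-IV replicate 3 (log2FC 0.82, 0.92, 0.82 and 0.85) or OVX replicate 3 (p 0.0577) and was undetermined without OVX replicate 2 (OVX vs Sham log2FC 0.88). Scd, chosen after its values were seen, encodes the desaturase that makes oleate and read 7.91, 4.9 and 34.9 CPM in Sham rats, 54.6, 45.5 and 94.8 in OVX rats and 40.3, 126 and 146 in AS-IV rats; Sham replicate 3 came near AS-IV replicate 1 without overlap, and the log2FC was 2.71 under AS-IV and 2.03 in OVX. Scd was undetermined without Sham replicate 1, Sham replicate 2 or OVX replicate 3 (OVX vs Sham p 0.0671, 0.0535 and 0.0645). Without Sham replicate 3 the log2FC of Scd under AS-IV was 4.02. Lpl and Fasn, also chosen after their values were seen, had smaller log2FC under AS-IV of 0.77 (p 0.00380) and 0.62 (p 0.00616), and 0.58 and 0.68 in OVX. Of the 20 adipocyte-list genes tested, 6 were DEGs, all higher and all kept, beside 3.15% of all genes that were DEGs, with a list median of 0.30 under AS-IV and 0.40 in OVX beside -0.013 and -0.0062 over all genes. The list's most abundant gene per length, the fatty acid carrier Fabp4 with a mean of 403 FPKM, had a log2FC of 0.26 under AS-IV (p 0.188) against 0.58 in OVX (p 0.0118). Its log2FC under AS-IV ranged from 0.15 to 0.43 with 1 library left out, and the lowest value of the other alternatives was 0.051. Plin1 (log2FC 0.87), Cidea (0.76) and Cidec (0.50) were not called with the muscle covariate. Cidea (log2FC 0.96) and Cidec (0.95) were not called by limma with a pseudocount of 0.1. Cidea and Cidec changed class by limma with a pseudocount of 1.

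**Figure D2:**
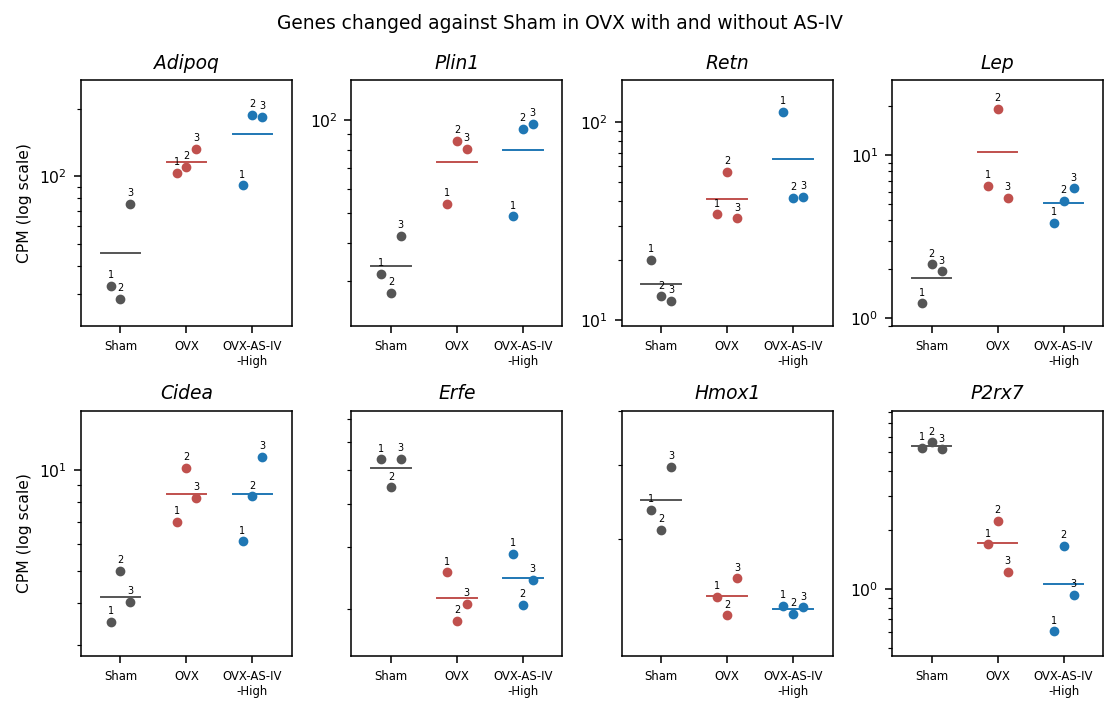
Normalised level in CPM on a log axis for 8 genes in the 9 libraries, grouped as Sham, OVX and OVX-AS-IV-High, with points numbered by replicate and lines at group means. Adipoq, Plin1, Retn, Lep and Cidea are higher in every OVX and AS-IV library than in every Sham library, and Erfe, Hmox1 and P2rx7 are lower.

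C5h8orf88 was kept as well and read 0.742, 0.939 and 1.75 CPM in Sham rats, 4.47, 6.81 and 3.8 in OVX rats and 7.6, 9.53 and 8.3 in AS-IV rats, with AS-IV above OVX and OVX above Sham in every library; its log2FC of 2.89 (SE 0.36, p 1.71e-05, adjusted p 0.0639) was the smallest p of the higher kept genes. Nnat, which encodes a small membrane proteolipid found in brain and fat, read 12.9, 16.3 and 19.7 CPM in Sham rats, 41.5, 32.8 and 34.9 in OVX rats and 26.1, 60.1 and 80.1 in AS-IV rats, and AS-IV replicate 1 lay below the OVX range while all ovariectomised libraries lay above Sham. Its log2FC was 1.77 under AS-IV and 1.16 in OVX. Gpr174, a lysophosphatidylserine receptor of lymphocytes, read 6.29, 3.84 and 5.07 CPM in Sham rats, 11.4, 18.4 and 12.3 in OVX rats and 14.4, 19.3 and 11.1 in AS-IV rats, with a log2FC of 1.56 under AS-IV and 1.47 in OVX and no overlap with Sham. C6h14orf180 had a log2FC of 1.81 under AS-IV and 1.66 in OVX. Prlhr, the receptor of prolactin-releasing peptide and chosen after its values were seen, was at 0.11, 0.323 and 0.282 CPM in Sham and 0.798, 0.921 and 1.18 in AS-IV, close to the limit of what this depth measures. Nnat (OVX vs Sham log2FC 0.89) was undetermined with the muscle covariate. Gpr174, C6h14orf180 and Prlhr changed class by limma with a pseudocount of 1.

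Clock genes were also among those kept. Nr1d1 (Entrez gene 252917), which encodes the haem-binding repressor Rev-erb alpha, read 94.6, 66.4 and 52.8 CPM in Sham rats, 23.4, 17.8 and 32.1 in OVX rats and 17.8, 24.2 and 14.8 in AS-IV rats. All 6 ovariectomised libraries were below the lowest Sham library, with a log2FC of -1.91 (SE 0.28, p 7.07e-05, adjusted p 0.0639) for AS-IV and -1.55 for OVX. Dbp, a PAR-bZIP activator driven directly by Bmal1, read 119, 93.1 and 83.4 CPM in Sham rats, 17.9, 18.1 and 67 in OVX rats and 19.5, 27.2 and 20.4 in AS-IV rats; the AS-IV libraries were all far below Sham, whereas OVX replicate 3 stayed near the Sham range. Its log2FC was -2.14 under AS-IV (p 0.00138, adjusted p 0.107 by edgeR) and -1.52 in OVX. Per2, a core repressor, read 52.1, 57.4 and 46.5 CPM in Sham rats, 15.2, 15.2 and 37.2 in OVX rats and 14.5, 19.4 and 14.6 in AS-IV rats, with the same exception of OVX replicate 3, and had a log2FC of -1.68 against -1.21. The activators ran the other way. Bmal1 read 3.46, 4.08 and 6.23 CPM in Sham rats, 15.3, 16.6 and 2.98 in OVX rats and 13.4, 11.1 and 13.6 in AS-IV rats, so all 3 AS-IV libraries exceeded Sham, as did OVX replicates 1 and 2 but not OVX replicate 3. Npas2 read 2.45, 1.88 and 0.845 CPM in Sham rats, 12, 11.8 and 0.461 in OVX rats and 10.3, 9.02 and 7.39 in AS-IV rats, with OVX replicate 3 again below Sham. Their log2FC under AS-IV were 1.47 (p 0.0198) and 2.37 (p 0.0239), and in OVX 1.34 and 2.23.

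Tef and Hlf, PAR-bZIP partners of Dbp, had log2FC of -1.52 and -1.46 under AS-IV against -1.15 and -1.11 in OVX, and Ciart, a repressor of Bmal1 with Clock, had -1.52 against -1.54. Per3 and Bhlhe41 were lower under AS-IV with log2FC of -1.19 (p 0.00126) and -1.28 (p 0.00326) but undetermined, since their OVX values of -0.85 and -0.95 missed the fold threshold. Of the 15 clock genes tested, 10 were DEGs under AS-IV, 8 lower and 2 higher, beside 3.15% of all genes, and 8 of the 10 were kept, beside 1.36% of all genes; the list median was -1.19 under AS-IV and -0.95 in OVX. Per1, Cry1, Cry2, Clock and Nr1d2, the rest of the list and chosen after their values were seen, were not DEGs, with log2FC of -0.76, 0.29, -0.52, 0.43 and -0.96. The class of 7 of the 10 changed with 1 library left out. Bmal1 was not called without Sham replicate 1 or Sham replicate 2 (p 0.0634 and 0.0578) and was undetermined without OVX replicate 1 (OVX vs Sham p 0.0911) or OVX replicate 2 (OVX vs Sham log2FC 0.99). Npas2 was not called without Sham replicate 2 or Sham replicate 3 (p 0.0553 and 0.0723) and was undetermined without OVX replicate 1 or OVX replicate 2 (OVX vs Sham p 0.0872 and 0.0885). Per2 was undetermined without OVX replicate 1 or OVX replicate 2 (OVX vs Sham log2FC -0.99 and -0.99). Hlf was undetermined without OVX replicate 1 or OVX replicate 2 (OVX vs Sham log2FC -0.93 and -0.92). Tef was undetermined without OVX replicate 2 (OVX vs Sham log2FC -0.88). Per3 met the kept rule without OVX replicate 3 (OVX vs Sham log2FC -1.20). Bhlhe41 met the kept rule without Sham replicate 2, Sham replicate 3 or OVX replicate 3 (OVX vs Sham log2FC -1.05, -1.07 and -1.30). Nr1d1, Dbp and Ciart stayed kept whichever library was left out. Per3 (OVX vs Sham log2FC -1.02) and Bhlhe41 (-1.03) met the kept rule with the muscle covariate. Bmal1 (OVX vs Sham p 0.0976) and Npas2 (0.140) were undetermined by limma with a pseudocount of 0.1. Bmal1 (OVX vs Sham p 0.0571) and Npas2 (0.0595) were undetermined in the fit of the groups compared alone. Bmal1, Npas2, Hlf, Ciart and Per3 changed class by limma with a pseudocount of 1.

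**Figure D3:**
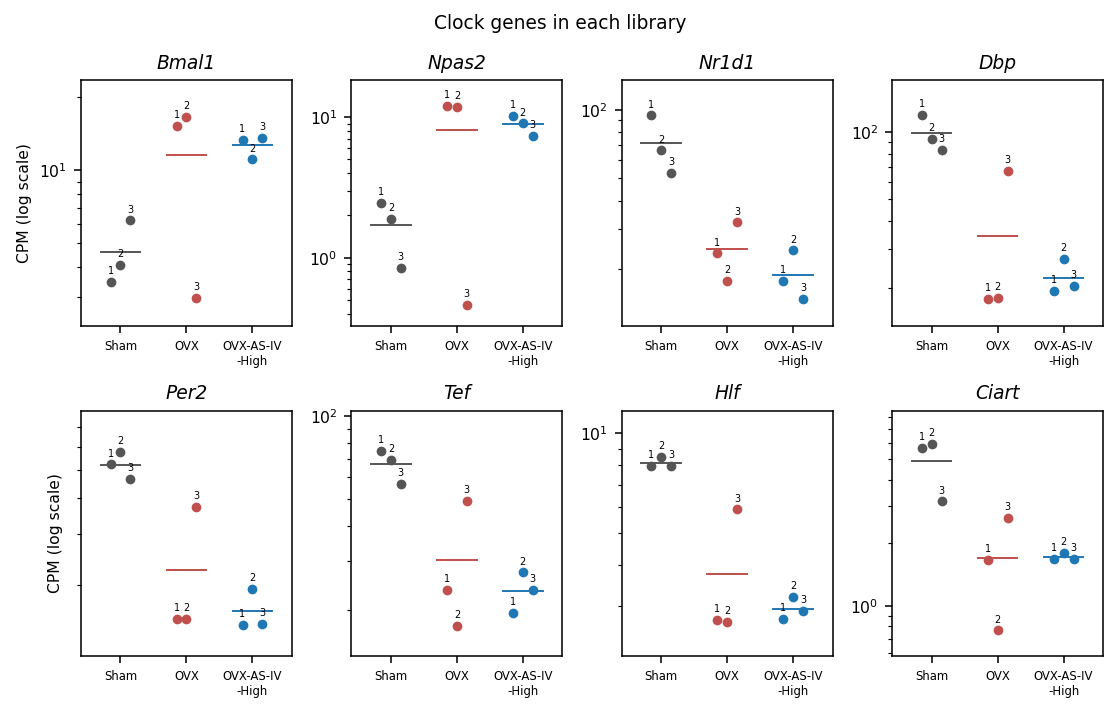
Normalised level in CPM on a log axis for 8 clock genes in the 9 libraries, grouped as Sham, OVX and OVX-AS-IV-High, with points numbered by replicate and lines at group means. Bmal1 and Npas2 are high and the other 6 low in all 3 AS-IV libraries, and OVX replicate 3 sits nearer to Sham than OVX replicates 1 and 2 for Bmal1, Npas2, Dbp, Per2, Tef and Hlf.

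Because clock genes are driven through short promoter elements, the promoters of the clock list were searched for 3 motifs on both strands, in RefSeq windows of build GRCr8 that run from 250 bases before to 50 bases after each start. The E-box CACGTG, the letters bound by Bmal1 with its partners, was in 2148 of 33469 promoters (6.42%); the D-box TTATGTAA of Dbp, Tef and Hlf was in 299 (0.893%); and AGGTCA, the letters read by Rev-erb and ROR receptors, was in 5415 (16.2%). Of the 16 names in the clock list, 13 matched an entry (Arntl, Cry1 and Hlf did not), and 4 of the 13 held the E-box, 1 the D-box and 2 AGGTCA. The 2 with AGGTCA were Bmal1 and Nr1d2. Nr1d2, lower under AS-IV but not a DEG, is not among the windows printed. The windows printed are those of genes lower under AS-IV with an E-box (Ciart, Nr1d1, Tef and Bhlhe41), of Per2 with a D-box, and of Bmal1, which was higher, with AGGTCA; capitals mark the motif. They lie at Ciart chr2:186112197-186112496 (minus strand), Nr1d1 chr10:84229405-84229704 (minus strand), Tef chr7:115206577-115206876 (plus strand), Bhlhe41 chr4:180569306-180569605 (minus strand), Per2 chr9:99496944-99497243 (minus strand) and Bmal1 chr1:176766078-176766377 (plus strand).
Ciart: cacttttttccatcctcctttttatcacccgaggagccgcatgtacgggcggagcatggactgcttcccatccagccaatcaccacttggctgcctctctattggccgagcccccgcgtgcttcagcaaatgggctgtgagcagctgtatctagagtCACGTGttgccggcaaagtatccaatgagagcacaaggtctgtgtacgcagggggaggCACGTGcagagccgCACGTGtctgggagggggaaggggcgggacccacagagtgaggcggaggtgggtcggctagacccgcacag
Nr1d1: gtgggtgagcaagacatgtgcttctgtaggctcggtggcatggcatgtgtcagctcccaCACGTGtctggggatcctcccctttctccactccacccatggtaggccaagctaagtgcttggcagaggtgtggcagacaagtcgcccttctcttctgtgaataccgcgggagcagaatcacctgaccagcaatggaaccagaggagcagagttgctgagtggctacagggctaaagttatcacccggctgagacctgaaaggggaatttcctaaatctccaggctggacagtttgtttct
Tef: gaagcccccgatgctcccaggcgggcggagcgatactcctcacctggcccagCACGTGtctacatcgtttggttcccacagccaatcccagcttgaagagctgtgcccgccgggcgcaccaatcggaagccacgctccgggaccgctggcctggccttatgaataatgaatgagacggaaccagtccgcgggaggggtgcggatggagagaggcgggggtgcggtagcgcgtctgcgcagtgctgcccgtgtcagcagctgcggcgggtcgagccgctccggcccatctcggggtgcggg
Bhlhe41: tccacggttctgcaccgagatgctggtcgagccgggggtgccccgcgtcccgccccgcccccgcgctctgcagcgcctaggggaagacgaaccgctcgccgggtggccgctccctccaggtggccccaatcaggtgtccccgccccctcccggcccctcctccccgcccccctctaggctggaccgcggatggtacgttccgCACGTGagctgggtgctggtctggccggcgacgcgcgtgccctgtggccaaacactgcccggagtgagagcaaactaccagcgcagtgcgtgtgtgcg
Per2: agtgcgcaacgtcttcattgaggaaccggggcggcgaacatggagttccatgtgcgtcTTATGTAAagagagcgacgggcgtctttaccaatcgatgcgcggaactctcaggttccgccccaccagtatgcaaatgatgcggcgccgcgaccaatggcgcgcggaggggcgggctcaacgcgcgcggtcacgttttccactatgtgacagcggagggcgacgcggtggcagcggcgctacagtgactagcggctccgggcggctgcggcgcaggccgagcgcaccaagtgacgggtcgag
Bmal1: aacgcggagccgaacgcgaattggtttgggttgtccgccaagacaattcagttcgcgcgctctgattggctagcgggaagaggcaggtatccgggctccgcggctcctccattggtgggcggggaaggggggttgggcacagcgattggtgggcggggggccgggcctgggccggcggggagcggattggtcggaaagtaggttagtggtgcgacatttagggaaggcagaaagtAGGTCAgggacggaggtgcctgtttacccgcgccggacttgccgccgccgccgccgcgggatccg
Ciart holds the E-box 3 times, and each of the other windows holds its motif once. Dbp and Per3, lower as well, have none of the 3 motifs in this window, which says only that these letters are not there.

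Erfe (Entrez gene 681056), the erythroblast hormone erythroferrone that lowers hepcidin, was kept and read 53.5, 44.5 and 53.8 CPM in Sham rats, 25.4, 18.5 and 20.6 in OVX rats and 28.7, 20.5 and 24.2 in AS-IV rats. Every ovariectomised library was below every Sham library, treated or not, and OVX and AS-IV overlapped. Its log2FC of -1.05 (SE 0.16, p 8.56e-05, adjusted p 0.0639) was close to the fold threshold, and the OVX value was -1.23. Erfe was not called without Sham replicate 1, Sham replicate 3 or AS-IV replicate 2 (log2FC -0.999, -0.999 and -0.93). P2rx7, an ATP-gated channel of macrophages and bone cells, read 5.28, 5.6 and 5.16 CPM in Sham rats, 1.69, 2.22 and 1.22 in OVX rats and 0.606, 1.65 and 0.934 in AS-IV rats, with AS-IV within or below the OVX range, both far from Sham, and a log2FC of -2.32 (SE 0.38, p 0.000153, adjusted p 0.0815), against -1.64 in OVX. Syt7, a calcium sensor for lysosome release, read 9.78, 8.18 and 6.37 CPM in Sham rats, 3.38, 4.46 and 3.2 in OVX rats and 2.45, 3.06 and 2.72 in AS-IV rats and had a log2FC of -1.56 (p 7.42e-05) against -1.14. Syt7 was undetermined without Sham replicate 1 (OVX vs Sham log2FC -0.99). Elovl7, a fatty acid elongase, read 1.87, 3.73 and 6.76 CPM in Sham rats, 1.28, 1.98 and 1.87 in OVX rats and 0.275, 0.894 and 0.495 in AS-IV rats and was lower under AS-IV than in OVX too, with log2FC of -2.88 from Sham and -1.62 from OVX (p 0.0150). Elovl7 met the rule for changes only under AS-IV without Sham replicate 2, OVX replicate 1, OVX replicate 2 or OVX replicate 3 (OVX vs Sham p 0.0570, 0.102, 0.0563 and 0.0631) or Sham replicate 3 (OVX vs Sham log2FC -0.71). Fam229a and Lgi3, the latter a secreted leucine-rich protein, had log2FC of -1.50 and -1.25 under AS-IV and -1.20 and -1.11 in OVX, without overlap with Sham. Atf3, a stress-induced transcription factor, had a log2FC of -1.19. Atf3 was not called without AS-IV replicate 3 (log2FC -0.93). Erfe (log2FC -0.99) and Atf3 (-0.82) were not called and Fam229a (OVX vs Sham log2FC -0.93) was undetermined with the muscle covariate. Syt7 (OVX vs Sham log2FC -0.90) and Lgi3 (-0.93) were undetermined and Elovl7 (OVX vs Sham log2FC -0.97) met the rule for changes only under AS-IV by limma with a pseudocount of 0.1. Erfe, P2rx7, Syt7, Elovl7, Lgi3 and Atf3 changed class by limma with a pseudocount of 1.

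Mylk2, the myosin light chain kinase of skeletal muscle and a kept gene, read 194, 145 and 115 CPM in Sham rats, 84.2, 66.5 and 58 in OVX rats and 81, 56.8 and 50.3 in AS-IV rats, and AS-IV did not overlap Sham; the log2FC was -1.27 under AS-IV and -1.12 in OVX. Mylk2 was undetermined without Sham replicate 1 (OVX vs Sham log2FC -0.91). The next genes were chosen after their values were seen. Myh11, the smooth muscle myosin heavy chain, read 80.3, 71.6 and 33.4 CPM in Sham rats, 27, 23.6 and 12.5 in OVX rats and 30.9, 29.6 and 15.2 in AS-IV rats, and Acta2, smooth muscle actin, 73.5, 62.8 and 31.2 CPM in Sham rats, 27.8, 25.9 and 12.1 in OVX rats and 31.9, 30.1 and 14.3 in AS-IV rats. AS-IV lay just below Sham replicate 3 for Myh11. For Acta2 the groups overlapped, since AS-IV replicate 1 (31.9 CPM) was above Sham replicate 3 (31.2 CPM). Replicate 3 was the lowest of each group for both genes, as it was for the muscle sum. The log2FC of Myh11 and Acta2 were -1.29 and -1.13 under AS-IV and -1.55 and -1.35 in OVX. Acta2 was not called without Sham replicate 1 or AS-IV replicate 3 (log2FC -0.88 and -0.85) or Sham replicate 2 (p 0.0628). Itgb4, an integrin chain of basement membranes, read 32.2, 28.2 and 16.1 CPM in Sham rats and 9.75, 10.2 and 6.82 in AS-IV rats, with a log2FC of -1.52 against -1.38 in OVX. Lama5, a laminin chain, read 20.2, 16.9 and 12.3 CPM in Sham rats and 6.3, 8.31 and 4.56 in AS-IV rats, with -1.36 against -1.04. Lama5 was undetermined without Sham replicate 1 or OVX replicate 3 (OVX vs Sham log2FC -0.87 and -0.86). Mylk2 (log2FC -0.98), Myh11 (-0.74) and Acta2 (-0.60) were not called and Lama5 (OVX vs Sham log2FC -0.80) was undetermined with the muscle covariate. Lama5 (OVX vs Sham log2FC -0.92) was undetermined by limma with a pseudocount of 0.1. Itgb4 and Lama5 changed class by limma with a pseudocount of 1. The part of attached tissue in these values was not tested.

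Some differences from Sham under AS-IV were below the fold threshold. Hmox1, which encodes the haem-degrading enzyme haem oxygenase and was chosen after its values were seen, read 235, 210.2 and 297 CPM in Sham rats, 146, 132 and 162 in OVX rats and 139, 134 and 138 in AS-IV rats, without overlap between Sham and either ovariectomised group. Its log2FC of -0.85 (SE 0.13, p 0.000113, adjusted p 0.0738) under AS-IV stood beside -0.75 in OVX (p 0.000285). The neutrophil granule genes Elane and Mpo, chosen in the same way, had log2FC of 0.52 (p 0.00554) and 0.41 (p 0.00891) under AS-IV and 0.59 and 0.46 in OVX. The eosinophil granule gene Prg2 had a log2FC of -0.69 (p 0.0106) against -0.72, and Epx -0.83 (p 0.0254) against -1.09, past that threshold in OVX. Epx met the kept rule without Sham replicate 2 or Sham replicate 3 (log2FC -1.04 and -1.01). Epx had a p of 0.130 without Sham replicate 1, 0.0508 without AS-IV replicate 2 and 0.0734 without AS-IV replicate 3. Its p was 0.0994 with the muscle covariate and 0.0606 by limma with a pseudocount of 1 and no filter. The log2FC nearest 0 with 1 library left out was -0.34 without Sham replicate 1 for Epx, and -0.42 for Prg2. Prg3, chosen after its values were seen, was past the fold threshold and kept, with a log2FC of -1.05. It was not called without Sham replicate 1, AS-IV replicate 1 or AS-IV replicate 3 (log2FC -0.61, -0.97 and -0.999). Prg3 was also not called with the muscle covariate (-0.78) or by limma with a pseudocount of 1 (-0.96) or 0.1 (-0.97).

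Of the 60 changes seen only under AS-IV, the 22 higher genes had a median log2 CPM relative to the Sham mean of 0.063, -0.19 and 0.073 across Sham itself, 0.37, 0.35 and 0.35 in OVX and 1.33, 1.60 and 0.93 in AS-IV. The 38 lower genes had -0.079, 0.088 and 0.079 across Sham itself, -0.17, -0.019 and -0.86 in OVX and -1.53, -1.64 and -1.69 in AS-IV, so OVX replicate 2 lay within the Sham spread. In 32 of the 60, 9 higher and 23 lower, all 3 AS-IV libraries lay beyond all 6 others, a pattern found in 696 of the 16874 genes (4.12%), but the rule used these libraries. Tspan4, a tetraspanin of cell membranes, had the smallest p of the lower genes and read 69.4, 62.7 and 70.9 CPM in Sham rats, 37.6, 44.2 and 46 in OVX rats and 28.2, 29.2 and 37.5 in AS-IV rats. Its AS-IV libraries were below OVX, and OVX was below Sham; the log2FC of -1.10 (SE 0.13, p 1.23e-05, adjusted p 0.0639) stood beside -0.67 in OVX and -0.43 between AS-IV and OVX (p 0.00875), so OVX already lay below Sham, under the fold threshold. Cma1, mast cell chymase, read 44.4, 40.5 and 44.8 CPM in Sham rats, 37.5, 36.3 and 21.5 in OVX rats and 21.6, 17.7 and 17.2 in AS-IV rats, with AS-IV below the 5 others and OVX replicate 3 at the AS-IV level, a log2FC of -1.20 and a p against OVX of 0.00378. Faah, the hydrolase that breaks down the endocannabinoid anandamide, read 5.8, 4.4 and 4.31 CPM in Sham rats, 5.45, 5.22 and 3.91 in OVX rats and 2.26, 1.62 and 2.42 in AS-IV rats. Here OVX lay within or near the Sham range and AS-IV alone was low, with a log2FC of -1.20 (p 0.000821, adjusted p 0.1 by edgeR) from Sham and -1.21 from OVX. Fmo2, a monooxygenase chosen after its values were seen, had a log2FC of -1.59 from Sham and -0.88 from OVX. Fmo2 was undetermined without OVX replicate 2 or AS-IV replicate 2 (AS-IV vs OVX p 0.0589 and 0.0544). Nxnl1, a thioredoxin-like gene near the limit of detection, was at 1.48, 1.58 and 2.37 CPM in Sham rats and 0.413, 0.19 and 0.137 in AS-IV rats. Faah and Nxnl1 changed class by limma with a pseudocount of 1.

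Gpr141, an orphan receptor of myeloid cells, met the rule for changes only under AS-IV and read 10.7, 12.1 and 11.1 CPM in Sham rats, 14.5, 14.5 and 16.3 in OVX rats and 26.7, 23.2 and 18.1 in AS-IV rats; AS-IV was above OVX and OVX above Sham in every library. Its log2FC of 1.01 (SE 0.15, p 8.71e-05, adjusted p 0.0639) sat at the fold threshold, and the log2FC from OVX was 0.59 (p 0.00356). Gpr141 was not called without Sham replicate 1, Sham replicate 3, AS-IV replicate 1 or AS-IV replicate 2 (log2FC 0.97, 0.99, 0.87 and 0.99). P2ry10b, a lymphocyte receptor of the P2Y family that lies beside Gpr174, read 4.23, 3.73 and 5.24 CPM in Sham rats, 6.49, 5.54 and 5.34 in OVX rats and 10.5, 12 and 7.64 in AS-IV rats, with AS-IV above all others and a log2FC of 1.19 from Sham and 0.79 from OVX (p 0.00498). Cbfb (Entrez gene 361391), the partner subunit that Runx factors need in bone and blood formation, read 117, 86.9 and 121 CPM in Sham rats, 134, 136 and 142 in OVX rats and 285, 240.02 and 151 in AS-IV rats. AS-IV replicates 1 and 2 were well above and replicate 3 just above the other 6 libraries, with a log2FC of 1.06 (SE 0.21, p 0.000724, adjusted p 0.1), and the log2FC from OVX was 0.71 (p 0.00818). Cbfb was not called without Sham replicate 2 or AS-IV replicate 1 (log2FC 0.93 and 0.86). Sp3, a zinc finger factor of the Sp family, read 100.3, 108 and 124 CPM in Sham rats, 127, 125 and 145 in OVX rats and 327, 212 and 134 in AS-IV rats, with AS-IV replicate 3 inside the OVX range. Sp3 was not called without Sham replicate 1 or AS-IV replicate 1 (log2FC 0.95 and 0.64) and was undetermined without OVX replicate 2 (AS-IV vs OVX p 0.0526). Stk26, a kinase of the Ste20 family, read 45.6, 31.5 and 23.1 CPM in Sham rats, 43.8, 42 and 54.7 in OVX rats and 94.4, 74.8 and 54.4 in AS-IV rats, with AS-IV replicate 3 at the level of OVX replicate 3. Stk26 was not called without Sham replicate 3 or AS-IV replicate 1 (log2FC 0.95 and 0.95) and was undetermined without OVX replicate 1, OVX replicate 2 or AS-IV replicate 2 (AS-IV vs OVX p 0.0765, 0.0866 and 0.0601). Dach2, a transcription cofactor, and Clec2e, a C-type lectin, were at lower levels, Dach2 with 2.34, 3.47 and 2.72 CPM in AS-IV and a log2FC of 1.29. Clec2e had 5.42, 3.68 and 4.04 CPM in AS-IV and a log2FC of 1.47. Clec2e was undetermined without OVX replicate 2 or AS-IV replicate 1 (AS-IV vs OVX p 0.0670 and 0.0653). Gpr141 (log2FC 0.96), Sp3 (0.92) and Dach2 (0.95) were not called by limma with a pseudocount of 0.1. Gpr141 (log2FC 0.999) and Sp3 (0.97) were not called with the replicate block. Gpr141, P2ry10b, Cbfb, Sp3, Dach2 and Clec2e changed class by limma with a pseudocount of 1. Stk26 changed class by limma with that pseudocount and no filter.

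For some genes 1 or 2 treated libraries carried the difference. Lyc2, a lysozyme gene, read 13.8, 13.1 and 12.8 CPM in Sham rats, 16.2, 17 and 19.8 in OVX rats and 17.9, 161 and 21.4 in AS-IV rats, so AS-IV replicate 2 alone was far from the rest. Lyc2 was undetermined without OVX replicate 1, OVX replicate 2 or OVX replicate 3 (AS-IV vs OVX p 0.0640, 0.0634 and 0.0501) and was not called without AS-IV replicate 2 (log2FC 0.57). Fam111a, a nuclear protease gene chosen after its values were seen, read 80.7, 83.6 and 105 CPM in Sham rats, 116, 86.4 and 104 in OVX rats and 103, 1117 and 1004 in AS-IV rats: AS-IV replicates 2 and 3 were far above every other library, and AS-IV replicate 1 was within the range of the rest. Sgsm1 and Pck1, chosen in the same way, showed the same split. Sgsm1 had 0.303, 7.01 and 6.43 CPM in AS-IV against 0.522, 0.675 and 0.254 CPM in Sham. Pck1, the gluconeogenic enzyme that also feeds glycerol to fat storage, had 20.9, 58.3 and 68.8 CPM in AS-IV against 10, 11.5 and 22.5 CPM in Sham. Pck1 was undetermined without OVX replicate 1, OVX replicate 3, AS-IV replicate 2 or AS-IV replicate 3 (AS-IV vs OVX p 0.0855, 0.0942, 0.0829 and 0.114). Olfm4, a neutrophil granule glycoprotein so chosen, read 279, 136 and 139 CPM in Sham rats, 254, 187 and 219.6 in OVX rats and 265, 725 and 535 in AS-IV rats. Olfm4 was undetermined without AS-IV replicate 2 (AS-IV vs OVX p 0.0505). Lyc2 (AS-IV vs OVX p 0.135) and Pck1 (0.0609) were undetermined by limma with a pseudocount of 0.1. Lyc2 (no p) was not called by DESeq2. Lyc2 (AS-IV vs OVX p 0.0790) was undetermined with the replicate block. Lyc2, Sgsm1 and Pck1 changed class by limma with a pseudocount of 1.

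Large fold changes seen only under AS-IV were found in the rat MHC, the RT1 complex, which presents peptides to T cells. RT1-A3 (Entrez gene 309627), a class I gene, read 62, 37.3 and 32 CPM in Sham rats, 74.7, 70.1 and 1.74 in OVX rats and 2.56, 0.975 and 1.35 in AS-IV rats, and RT1-CE16, another class I gene, read 213, 207 and 54.3 CPM in Sham rats, 208, 347 and 4.29 in OVX rats and 4.6, 11.1 and 2.17 in AS-IV rats. In both, the 3 AS-IV libraries and OVX replicate 3 were low and the 5 other libraries high, so 1 untreated library shared the treated level. The log2FC from Sham were -4.75 (p 0.00175) and -4.73 (p 0.00506), with adjusted p by edgeR of 0.107 and 0.133, and -4.91 and -4.96 from OVX. RT1-Bb, a class II beta chain, read 48.9, 69.8 and 90 CPM in Sham rats, 25.3, 57.8 and 22.4 in OVX rats and 14.9, 15.4 and 17 in AS-IV rats, with a log2FC of -2.14 from Sham and -0.98 in OVX. RT1-Bb met the kept rule without Sham replicate 1 or OVX replicate 2 (OVX vs Sham log2FC -1.19 and -1.54). RT1-Db2, another class II beta chain and chosen after its values were seen, was higher, at 2.04, 4.31 and 6.02 CPM against 1.1, 1.14 and 1.97 in Sham. RT1-Db2 was not called without Sham replicate 1, Sham replicate 2, AS-IV replicate 2 or AS-IV replicate 3 (p 0.0820, 0.0818, 0.0595 and 0.107) and was undetermined without OVX replicate 1 (AS-IV vs OVX p 0.0517). RT1 genes are near-identical copies that differ between animals, so reads can be divided among them by the counting, and their levels are uncertain. Evc2, a ciliary protein of hedgehog signalling outside the MHC, followed the same library pattern at 13.5, 26.7 and 28.9 CPM in Sham rats, 14.3, 17.3 and 3.47 in OVX rats and 2.75, 3.2 and 2.58 in AS-IV rats. Evc2 met the kept rule without Sham replicate 1 or OVX replicate 2 (OVX vs Sham log2FC -1.26 and -1.37). LOC102550980, chosen after its values were seen, had 0 counts in all 3 AS-IV libraries, which allows up to 3 counts in each, and 96, 86 and 70 counts in Sham. LOC102550980 met the kept rule without OVX replicate 1 (OVX vs Sham log2FC -1.98). Of the 38 lower genes of this class, 18 had OVX replicate 3 below the 5 remaining untreated libraries, as had 2682 of all genes (15.9%); the cause was not tested. RT1-Db2 (log2FC 0.81) was not called and RT1-Bb (OVX vs Sham log2FC -1.20) met the kept rule with the muscle covariate. RT1-Bb (OVX vs Sham log2FC -1.05) and LOC102550980 (-1.13) met the kept rule by limma with a pseudocount of 0.1. RT1-Bb (OVX vs Sham log2FC -1.04) and LOC102550980 (-1.33) met the kept rule with the replicate block. RT1-Bb and RT1-Db2 changed class by limma with a pseudocount of 1.

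**Figure D4:**
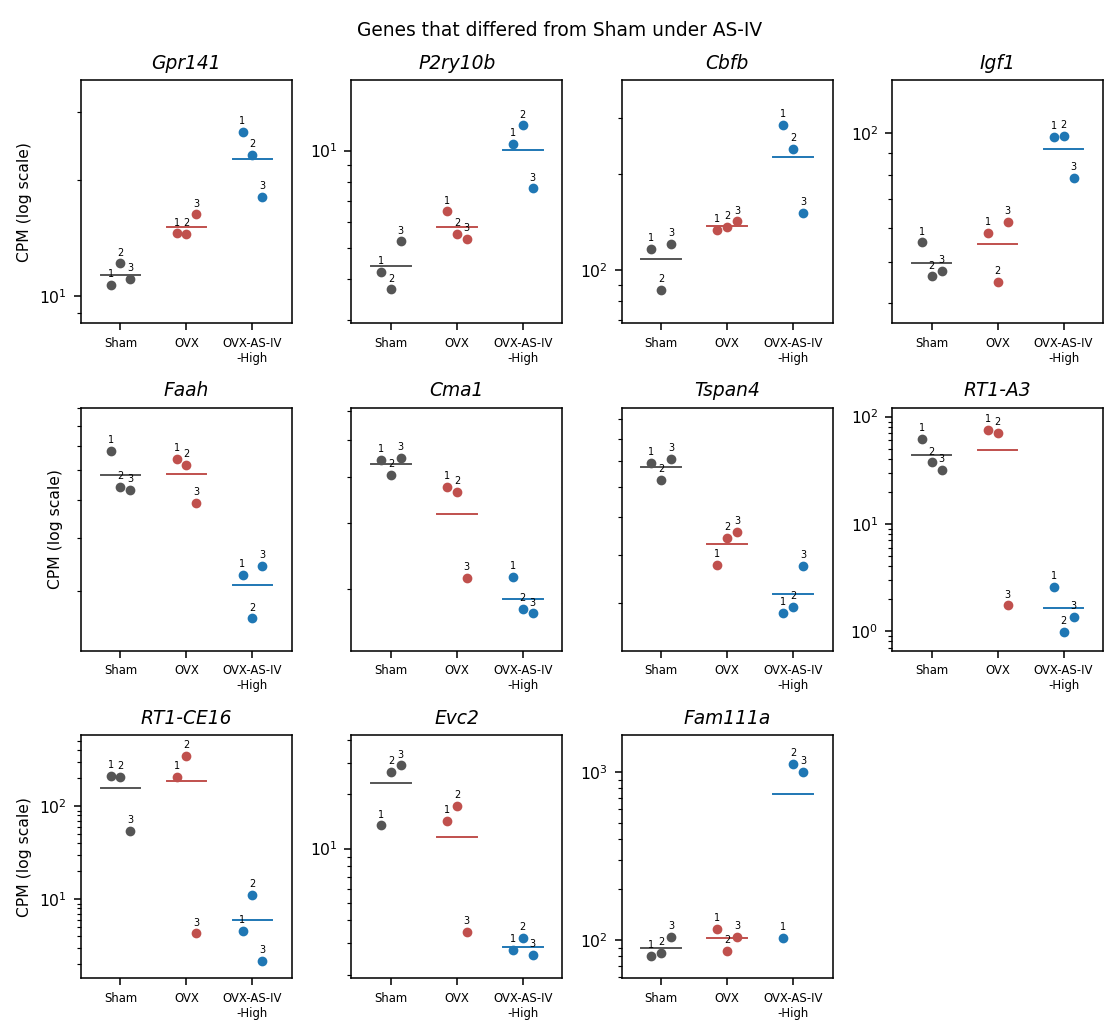
Normalised level in CPM on a log axis for 11 genes in the 9 libraries, grouped as Sham, OVX and OVX-AS-IV-High, with points numbered by replicate and lines at group means. Gpr141, P2ry10b, Cbfb and Igf1 are higher and Faah and Tspan4 lower in all 3 AS-IV libraries than in the 6 others, while RT1-A3, RT1-CE16 and Evc2 are low in OVX replicate 3 as well, and Fam111a is high in AS-IV replicates 2 and 3.

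Adrenomedullin and a partner of its receptor were both lower under AS-IV. Adm, the gene of this vasodilator peptide and chosen after its values were seen, read 2.64, 3.64 and 3.72 CPM in Sham rats, 1.36, 3.72 and 1.68 in OVX rats and 1.27, 1.11 and 1.07 in AS-IV rats, so AS-IV was below every other library, with log2FC of -1.53 from Sham and -0.97 from OVX. Adm met the kept rule without OVX replicate 2 (OVX vs Sham log2FC -1.13) and was undetermined without AS-IV replicate 1, AS-IV replicate 2 or AS-IV replicate 3 (AS-IV vs OVX p 0.0501, 0.0750 and 0.0799). Ramp2, which lets the calcitonin-like receptor bind adrenomedullin, had the smallest p of all DEGs and read 33.1, 32.4 and 25.8 CPM in Sham rats, 16.6, 16.6 and 16.1 in OVX rats and 14.1, 15.4 and 12.9 in AS-IV rats. All AS-IV libraries were below all OVX libraries and these below all Sham libraries; its log2FC of -1.10 (SE 0.13, p 7.96e-06, adjusted p 0.0639) stood beside -0.89 in OVX (p 4.45e-05), under the fold threshold, so it was undetermined. Calcrl, the receptor itself and so chosen, had a log2FC of 0.19. Ramp2 (log2FC -0.996) was not called with the muscle covariate. Adm (AS-IV vs OVX p 0.0552) was undetermined in the fit of the groups compared alone. Adm changed class by limma with a pseudocount of 1.

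Changes smaller than the fold threshold were looked at after the DEGs were seen, under a rule of p under 0.05 against both Sham and OVX with 1 sign, an absolute log2FC from Sham of at most 1, and a p of at least 0.05 between OVX and Sham. It found 361 genes higher (2.14%) and 59 lower (0.35%). Relative to the Sham mean, the median of the 361 was 0.076, -0.014 and 0.068 in OVX and 0.66, 0.56 and 0.21 in AS-IV on the log2 scale. AS-IV replicates 1 and 2 were thus farthest from Sham, and AS-IV replicate 3 nearest to it. The 361 had a median transcript length of 5132 bases beside 3220 over all genes tested, and the 59 had 2614; the part of length or RNA quality in this set was not tested. The count of the higher set was 240 without Sham replicate 2, 215 without OVX replicate 2, 193 without AS-IV replicate 1, 175 without AS-IV replicate 2 and 541 without AS-IV replicate 3. The lower set was 106 without AS-IV replicate 1, 34 without Sham replicate 2, and 33 without either OVX replicate 2 or AS-IV replicate 2.

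Genes of small change were chosen after their values were seen, apart from Pecam1. Igf1, a growth factor that osteoblasts and marrow stroma secrete, read 55.6, 46.3 and 47.7 CPM in Sham rats, 58.6, 44.8 and 62.1 in OVX rats and 97.9, 98.4 and 78.6 in AS-IV rats. All 3 AS-IV libraries were above all 6 others, and the OVX and Sham ranges overlapped. Its log2FC of 0.88 (SE 0.15, p 0.000178, adjusted p 0.0815) from Sham went with a log2FC of 0.73 from OVX (p 0.000661). Lepr, the leptin receptor that marks marrow stroma, read 89.2, 90.6 and 113 CPM in Sham rats, 82.9, 66.1 and 91.7 in OVX rats and 121, 137 and 125 in AS-IV rats, with a log2FC of 0.39 from Sham (p 0.0198) and 0.67 from OVX (p 0.000866). Kitlg, the stem cell factor of the niche, read 71.9, 79 and 69.7 CPM in Sham rats, 69.4, 77.8 and 63.1 in OVX rats and 93, 119.7 and 85.1 in AS-IV rats, with log2FC of 0.43 and 0.50. The glucocorticoid receptor gene Nr3c1 did not meet the rule, with a log2FC from Sham of 0.60 (p 0.000179) under AS-IV and 0.30 (p 0.0138) in OVX. Neither did the oestrogen receptor gene Esr1, which had 0.59 (p 0.0185) under AS-IV and 0.25 in OVX and a p of 0.129 between them. On the lower side, the interferon-induced tetherin gene Bst2 read 62.1, 84.6 and 106 CPM in Sham rats, 79.4, 74.7 and 69.4 in OVX rats and 51.2, 55.1 and 43.5 in AS-IV rats, with a log2FC of -0.76 (p 0.00207), and the basophil protease gene Mcpt8 had -0.35 from Sham and -0.63 from OVX. Pecam1, the most abundant endothelial gene per length, had -0.52 (p 0.0268) against -0.058 in OVX, and 7 of the 12 endothelial genes had a p under 0.05, all lower, beside 8.48% of all genes. The median of the endothelial list was -0.43 under AS-IV and -0.23 in OVX against Sham, and -0.13 between AS-IV and OVX, so part of the list's fall was present in OVX. Lepr had a p of 0.0600 without Sham replicate 1, 0.0612 without Sham replicate 2 and 0.0675 without AS-IV replicate 2. Esr1 had a p of 0.0602 without AS-IV replicate 2, and by limma 0.247 with a pseudocount of 1 and 0.189 with 0.1. Its lowest log2FC from Sham in the alternatives that kept every library was 0.066. Mcpt8 had a p of 0.183 without Sham replicate 2, 0.0510 without OVX replicate 2, 0.0678 without AS-IV replicate 2 and 0.132 without AS-IV replicate 3, and 0.106 with the muscle covariate. Pecam1 had a p of 0.111 without Sham replicate 2, 0.0680 without AS-IV replicate 2 and 0.0814 without AS-IV replicate 3, and 0.0803 with the muscle covariate. Its p of 0.0434 between AS-IV and OVX became 0.0507 with RLE size factors, 0.0537 in the fit of the groups compared alone, 0.0620 by limma with a pseudocount of 1 and no filter, 0.0612 without Sham replicate 1, 0.0991 without OVX replicate 1, 0.190 without OVX replicate 2, 0.0978 without AS-IV replicate 2 and 0.118 without AS-IV replicate 3.

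Some DEGs were undetermined. G0s2, an inhibitor of triglyceride lipase, read 14.3, 11.6 and 11.5 CPM in Sham rats, 27.1, 21.9 and 19 in OVX rats and 27.3, 25.7 and 23.3 in AS-IV rats, without overlap with Sham, and had log2FC of 1.03 (p 8.23e-05) under AS-IV and 0.86 (p 0.000309) in OVX. G0s2 was not called without Sham replicate 2, Sham replicate 3 or AS-IV replicate 1 (log2FC 0.99, 0.97 and 0.97). Sncg, a synuclein of nerve and fat cells, and Krt79, a keratin, had log2FC of 1.09 and 1.14 against 0.88 and 0.89 in OVX. Sncg met the rule for changes only under AS-IV without AS-IV replicate 1 (AS-IV vs OVX p 0.0314) and was not called without AS-IV replicate 3 (log2FC 0.91). Krt79 met the kept rule without OVX replicate 1 (OVX vs Sham log2FC 1.02), met the rule for changes only under AS-IV without AS-IV replicate 1 (AS-IV vs OVX p 0.0338) and was not called without AS-IV replicate 3 (log2FC 0.93). Ccdc92 was lower, with -1.22 against -0.79. Ccdc92 met the rule for changes only under AS-IV without Sham replicate 1, Sham replicate 2 or OVX replicate 2 (AS-IV vs OVX p 0.0163, 0.0468 and 0.0482). Phex, the osteocyte endopeptidase that restrains phosphate loss, read 24.4, 19.5 and 39.9 CPM in Sham rats, 27, 36.4 and 59 in OVX rats and 36.4, 80.3 and 53.9 in AS-IV rats, so AS-IV overlapped both groups. Phex was not called without Sham replicate 1, Sham replicate 2 or AS-IV replicate 2 (log2FC 0.95, 0.83 and 0.69). Wnt2 and Rspo2, a Wnt ligand and a Wnt enhancer, had log2FC of 1.35 and 1.50 at levels of at most 7.34 CPM and 2.17 CPM in any library. Wnt2 met the kept rule without Sham replicate 3 (OVX vs Sham log2FC 1.25). Rspo2 was not called without Sham replicate 1, Sham replicate 2, AS-IV replicate 2 or AS-IV replicate 3 (p 0.0633, 0.0649, 0.0956 and 0.0516) and met the rule for changes only under AS-IV without AS-IV replicate 1 (AS-IV vs OVX p 0.0196). Matn1, a cartilage matrix protein, and Sox10, the Schwann cell factor, had log2FC of -2.14 and -1.74 on few counts. Matn1 was not called without Sham replicate 1, OVX replicate 1, AS-IV replicate 2 or AS-IV replicate 3 (p 0.230, 0.0521, 0.0899 and 0.0989) and met the kept rule without Sham replicate 3 or OVX replicate 3 (OVX vs Sham log2FC -2.27 and -2.49). Sox10 was not called without Sham replicate 1, Sham replicate 2, AS-IV replicate 1 or AS-IV replicate 3 (p 0.0580, 0.0809, 0.0634 and 0.0781). Sncg (log2FC 0.86), Krt79 (0.91), Phex (0.73), Rspo2 (p 0.0823), Matn1 (0.0824) and Sox10 (0.0914) were not called with the muscle covariate. Phex (log2FC 0.99) was not called and Ccdc92 (AS-IV vs OVX p 0.0428) met the rule for changes only under AS-IV by limma with a pseudocount of 0.1. Matn1 (OVX vs Sham log2FC -1.95) met the kept rule by DESeq2. Matn1 (OVX vs Sham log2FC -1.94) met the kept rule with no filter. Matn1 (OVX vs Sham log2FC -1.94) met the kept rule and Ccdc92 (AS-IV vs OVX p 0.0267) and Wnt2 (0.0259) met the rule for changes only under AS-IV in the fit of the groups compared alone. G0s2, Phex, Wnt2 and Matn1 changed class by limma with a pseudocount of 1. Rspo2 and Sox10 changed class by limma with that pseudocount and no filter.

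Other genes had no call under AS-IV, some of which differed between OVX and Sham. Ptgs2, the inducible prostaglandin synthase, read 8.63, 6.54 and 8.82 CPM in Sham rats, 3.19, 2.4 and 3.77 in OVX rats and 14, 5.12 and 9.54 in AS-IV rats, and AS-IV spans the Sham range with a log2FC of 0.25 (p 0.469). Osm and Egr1, a cytokine and an immediate early factor chosen after their values were seen, had -0.24 (p 0.209) and 0.34 (p 0.214), and Nr4a1 had -0.16 (p 0.594). With 1 library left out, the log2FC of Ptgs2 became -0.13 without AS-IV replicate 1 and Nr4a1 became 0.089 without Sham replicate 2 and 0.058 without AS-IV replicate 2. Over the fits with 1 library left out, Osm ranged from -0.44 to -0.12 and Egr1 from 0.17 to 0.61. A p above 0.05 does not show that these levels equal Sham. Igfbp2, an IGF-binding protein, read 13.8, 22.6 and 19.6 CPM in Sham rats, 0.354, 1.13 and 0.326 in OVX rats and 16.1, 1.03 and 0.275 in AS-IV rats: AS-IV replicate 1 was in the Sham range and AS-IV replicates 2 and 3 were at the OVX level. Igfbp2 met the kept rule without AS-IV replicate 1 (log2FC -4.83). Bglap, the osteoblast gene of osteocalcin, read 211, 334 and 512 CPM in Sham rats, 636, 955 and 854 in OVX rats and 323, 885 and 632 in AS-IV rats, with a log2FC of 0.80 (p 0.0684). Bglap met the kept rule without Sham replicate 3 or AS-IV replicate 1 (log2FC 1.17 and 1.11). Sfrp1, a Wnt antagonist, and Igll1, a surrogate light chain of early B cells, were split by the same libraries. Sfrp1 met the kept rule without Sham replicate 3 or AS-IV replicate 1 (log2FC 1.20 and 1.16). Sfrp1 had a p of 0.0910 without Sham replicate 1, 0.105 without Sham replicate 2, 0.119 without AS-IV replicate 2 and 0.0861 without AS-IV replicate 3, and 0.0806 with the muscle covariate. Igll1 met the kept rule without Sham replicate 3 or AS-IV replicate 1 (log2FC 1.43 and 1.09). Wnt1 and Wnt10a were near the limit of detection, Wnt1 with 0.468, 0.0812 and 0.55 CPM in AS-IV and 0.659, 0.205 and 0.338 in Sham. Wnt10a had 0.496, 0.65 and 1.15 CPM in AS-IV and 0.33, 0.411 and 1.41 in Sham. Gzmb, Gfap and Il22ra2 had log2FC of 0.41, -0.54 and 0.096, and each changed sign with 1 library left out: Gzmb became -0.13 without Sham replicate 1, -0.11 without Sham replicate 3 and -1.42 without AS-IV replicate 2, Gfap became 1.28 without Sham replicate 3 and Il22ra2 became -0.16 without Sham replicate 3 and -0.35 without AS-IV replicate 1. Gzmb met the rule for changes only under AS-IV without Sham replicate 2 (log2FC 3.66). Fgf23, the phosphate hormone of osteocytes, read 5.41, 3.84 and 7.64 CPM in Sham rats, 1.96, 1.95 and 2.69 in OVX rats and 1.05, 3.79 and 3.52 in AS-IV rats, with a log2FC of -1.01 and a p of 0.0503, just past 0.05. Fgf23 met the kept rule without Sham replicate 2 or AS-IV replicate 2 (log2FC -1.22 and -1.30). The values nearest 0 with 1 library left out were -1.13 without AS-IV replicate 3 for Igfbp2, 0.44 without AS-IV replicate 2 for Bglap, 0.67 without AS-IV replicate 2 for Sfrp1, 0.41 without AS-IV replicate 3 for Igll1 and -0.62 without AS-IV replicate 1 for Fgf23. The stained proteins' genes Ctnnb1 and Rela had 0.25 and -0.079. With 1 library left out Ctnnb1 ranged from 0.12 to 0.38 and Rela from -0.15 to -0.021. Gfap (log2FC -1.46) and Fgf23 (-1.50) met the kept rule with the muscle covariate. Igfbp2 (log2FC -3.24) and Fgf23 (-1.07) met the kept rule by limma with a pseudocount of 0.1. Fgf23 (log2FC -1.01) met the kept rule by DESeq2. Fgf23 (log2FC -1.003) met the kept rule with no filter. Igfbp2 changed class by limma with a pseudocount of 1.

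Across the 33 lists of cell types and pathways, 461 distinct genes were tested and 25 were DEGs, beside 3.15% of all genes, and 22 lists held none. Beside muscle and the clock, the lowest medians were those of tendon and synovium (-0.74), mast cells, basophils and eosinophils (-0.69) and chondrocytes (-0.47), with -0.32, 0.074 and -0.59 in OVX. Endothelium and megakaryocytes followed at -0.43 and -0.42, with -0.23 and -0.16 in OVX. Schwann cells had -0.26, macrophages -0.25 and RANKL and M-CSF signals -0.24, with -0.20, 0.052 and -0.24 in OVX. The highest medians were those of the B lineage (0.39, and 0.70 in OVX), neutrophils (0.33, and 0.17 in OVX), the adipocyte list and T and NK cells (0.27, and 0.71 in OVX). In the B lineage 7 of 16 genes had a p under 0.05 and in neutrophils 6 of 13, all higher and none a DEG, beside 9.17% of all genes. In bone cells the median was 0.16 for osteoblasts and bone matrix against 0.40 in OVX, -0.064 against -0.051 for osteocytes and 0.21 against 0.29 for osteoclasts. The erythroid list had -0.14, with Erfe its only DEG.

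For signalling lists the medians were -0.13 for Wnt ligands, 0.080 for Wnt receptors, transducers and targets, 0.16 for Wnt antagonists, 0.20 for NF-kB subunits and kinases, and 0.011 for inflammatory cytokines. They were -0.012 for JAK-STAT and SOCS genes, -0.011 for the IGF system, 0.18 for steroid and bone hormone receptors, -0.011 for antioxidant enzymes and -0.0085 for cholesterol synthesis. Marrow stroma had 0.082, interferon-stimulated genes -0.11, and proliferation genes 0.12. Immediate early genes had 0.0017 under AS-IV against -0.59 in OVX, and the genes of the study's hubs and stained proteins 0.096 against -1.71. The paper picked its hub genes from these libraries for opposite changes with ovariectomy and with AS-IV, so the medians of that list carry no test.

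**Figure D5:**
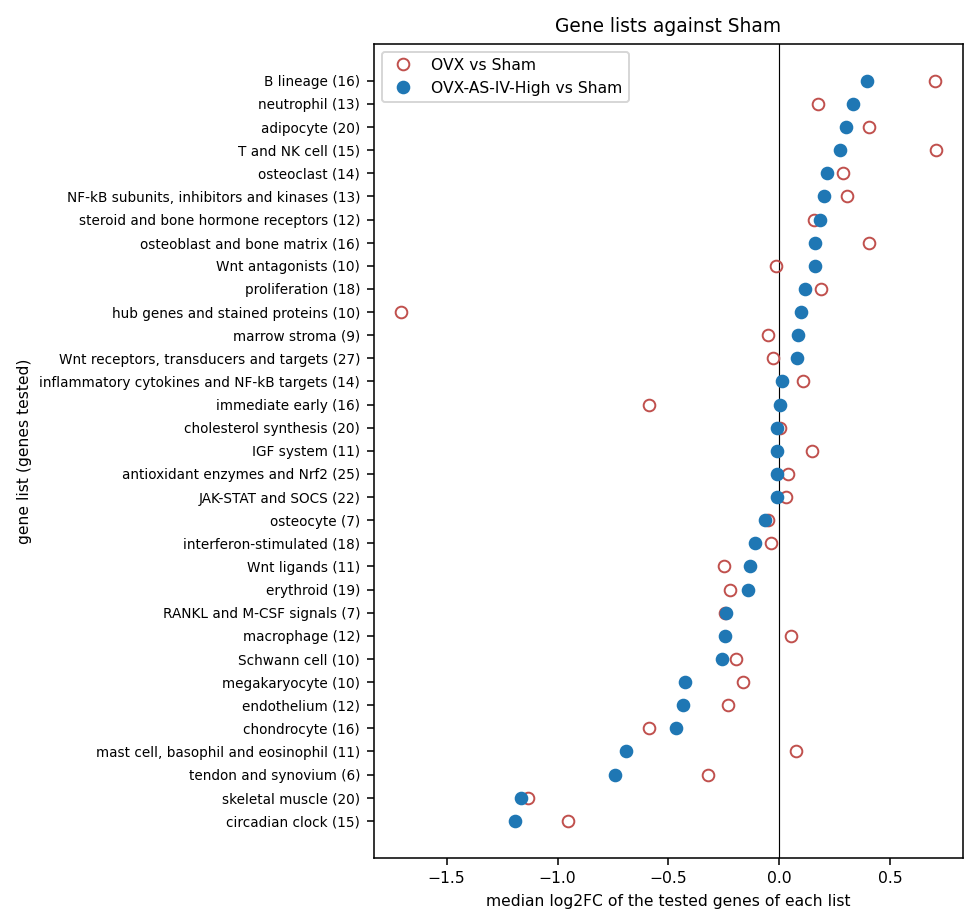
Median log2FC against Sham of each of the 33 gene lists for OVX libraries and for OVX-AS-IV-High libraries, with the number of tested genes. The clock and skeletal muscle lists are lowest under AS-IV (-1.19 and -1.17), and the B lineage list is highest (0.39).

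In the deposited KEGG annotation 329 terms held 10 to 300 tested genes, with medians between -0.55 and 0.23; 103 held no DEG, 157 held a kept gene and 59 a gene seen only under AS-IV. Circadian rhythm had 5 kept genes of 33 (15.2%, beside 1.36% of all genes), namely Bmal1, Dbp, Npas2, Nr1d1 and Per2. Cytoskeleton in muscle cells had 10 of 222, 9 of them lower, and a median of -0.31 against -0.36 in OVX. AMPK signaling had 5 of 114, all higher (Adipoq, Cidea, Gys2, Lep and Scd), with a median of -0.0088, and Regulation of lipolysis in adipocytes had 4 of 51, of which Aqp7, Cidec and Plin1 were higher, with 0.021. PPAR signaling, with 62 genes and a median of -0.0054, held 4 kept genes (Adipoq, Aqp7, Plin1 and Scd). Biosynthesis of unsaturated fatty acids had 2 of 25, Scd higher and Elovl7 lower, while Fatty acid biosynthesis (-0.071) and Arachidonic acid metabolism (-0.34) held no DEG. Focal adhesion had 5 of 195, its only DEGs, ECM-receptor interaction 4 of 83, with the laminins Lama2, Lama5 and Lamc3 in both, and Vascular smooth muscle contraction 5 of 109, all lower. Cell adhesion molecules had 4 of 135, 2 higher and 2 lower. Neuroactive ligand-receptor interaction had 10 of 175 and Calcium signaling 8 of 203. These terms share genes, so their counts are not independent.

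Of the 60 genes seen only under AS-IV, 20 had a KEGG term, beside 6746 of the 16874 tested. Antigen processing and presentation had 4 of 74 (5.41%, beside 0.356% of all genes), which were RT1-A3, RT1-Bb and RT1-CE16, lower, and RT1-Db2, higher; the same 4 genes gave the counts of Graft-versus-host disease (4 of 44), Allograft rejection (4 of 45) and Type I diabetes mellitus (4 of 52), so these terms carry the uncertainty of the RT1 genes. Ubiquitin mediated proteolysis had 16 of 138 genes (11.6%) among the smaller higher changes, beside 2.14% of all genes. Its median log2FC was 0.078 under AS-IV and 0.048 in OVX against Sham, and 0.0044 between AS-IV and OVX. That set was defined after the data were seen and had a median transcript length of 5132 bases, beside 3220 over all genes tested. The lowest KEGG medians were those of Linoleic acid metabolism (-0.55) and Asthma (-0.52), and the highest those of Primary immunodeficiency (0.23) and Staphylococcus aureus infection (0.22). Of pathways chosen for bone, Osteoclast differentiation had 0.022 with 1 DEG of 126, Wnt signaling 0.026 with 4 of 154, Parathyroid hormone synthesis, secretion and action 0.0021 with 1 of 102, and Estrogen signaling -0.035 with 1 of 99, all beside 3.15% of all genes. The gene of the last term was the kept Greb1, an oestrogen-induced growth gene chosen after its values were seen, at 3.3, 4.61 and 5.75 CPM in Sham rats, 0.463, 2.08 and 1.74 in OVX rats and 3, 0.975 and 0.825 in AS-IV rats. Greb1 was not called without Sham replicate 2, Sham replicate 3, AS-IV replicate 2 or AS-IV replicate 3 (p 0.0675, 0.0910, 0.112 and 0.109) and was undetermined without OVX replicate 1 (OVX vs Sham p 0.0558). Greb1 changed class by limma with a pseudocount of 1.

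Among 3974 GO terms of that size, medians ran from -1.27 to 0.43; 2185 held no DEG, 1098 held a kept gene and 278 a gene seen only under AS-IV. The term circadian rhythm had 9 kept genes of 113 (7.96%, beside 1.36% of all genes), 5 higher and 4 lower. Of these, Bmal1, Npas2, Nr1d1 and Per2 are in the clock list, whereas Adipoq, Gnrhr, Lep, Ntrk2 and Ntrk3 are not. Actin binding had 9 of 253, dendritic spine 9 of 177, postsynaptic membrane 9 of 186 and calmodulin binding 8 of 155. The 6 lowest medians all belonged to muscle, among them -1.27 for cardiac muscle tissue morphogenesis and -1.23 for myosin filament, with -1.12 and -1.60 in OVX. The highest were antigen binding (0.43) and T cell migration (0.39), each with few genes. Osteoblast differentiation (0.020) had 5 DEGs of 105, bone mineralization (-0.074) 3 of 63, all undetermined, and ossification (-0.028) 3 of 104, beside 3.15% of all genes. Bone resorption (0.068) and osteoclast differentiation (0.026) held no DEG, nor did response to oxidative stress (0.0045). The files do not mark the category of a GO term, so processes, components and functions were pooled.

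Adjacent genes were few in either class. In the order of RefSeq build GRCr8, neighbouring pairs included Tmem252 with Pgm5 and Rergl with Pik3c2g among kept genes, and RT1-CE16 with LOC108353253 and Mpped1 with Efcab6 among genes seen only under AS-IV. Protein-coding genes were 179 of the 229 kept and 47 of the 60 seen only under AS-IV, beside 15127 of the 16874 tested. With 3 rats a group and no gene past the adjusted threshold in the edgeR fit used for the calls, single genes here are candidates at an unadjusted p, and a difference that is not called is not shown to be absent.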

How the data were processed

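RNA from the bone of 9 rats, 3 in each of the groups Sham, OVX and OVX-AS-IV-High, was sequenced as oligo(dT)-selected mRNA; the methods call the 3 samples of a group independent biological replicates. The authors aligned reads with Tophat and Bowtie2 to rat build mRatBN7.2, as the submitters' processing notes name it, and counted them with eXpress. The deposited table gives a count for each of 23026 genes (18206 protein-coding), and a second deposited table gives FPKM, fragments scaled to transcript length and library size; whether counting used the strand is not stated. Library totals ran from 34874880 to 37298250 counts.

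Counts were fitted with edgeR 4.0.16 in R 4.3.3 (TMM normalisation, filterByExpr with a minimum count of 10, quasi-likelihood test, 1 mean per group, all 9 libraries), which left 16874 genes and a common biological coefficient of variation of 0.256. P-values were adjusted by the Benjamini-Hochberg method over all genes tested. A SE is the absolute log2FC divided by the square root of the test's F. CPM are counts scaled to library size after TMM, and levels of different genes are compared as FPKM. A count of 0 allows up to 3 counts in a library; such limits cover counting error only. DESeq2 1.42.0 and limma 3.58.1 (on log2 FPKM with pseudocounts of 1 and 0.1, with and without a minimum mean FPKM of 0.1) were run beside it, and pandas 2.3.3, numpy 2.4.6 and matplotlib 3.10.9 in Python 3.11.15 made the tables and plots. The pipeline was tested on simulated data.

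Other alternatives were RLE size factors, no filter on low counts, a fit of the groups compared alone, a fold threshold of 0.58 on the log2 scale, the replicate number as a block, the mean level of the skeletal muscle list as a covariate, and leaving out each of the 9 libraries in turn. The labels give no source for the replicate numbers. Deviations from the group mean of OVX and AS-IV libraries of 1 number correlated at 0.310, 0.158 and 0.130 across 16874 genes, each over 0.1, so these numbers were taken as pairs, although OVX replicate 2 correlated more with AS-IV replicate 3 (0.178); those of Sham and AS-IV did not all pass 0.1. Named genes are the 10 DEGs each way with the smallest p, no overlap between groups, a mean of at least 1 CPM and a symbol that is not a placeholder, the 8 each way by the same rule among kept genes and among those seen only under AS-IV, the study's hub genes and stained proteins, list genes that were DEGs in either comparison with Sham, and the most abundant gene of each list. They came to 108, and any other gene given with values is marked as chosen after its values were seen. GO and KEGG terms came from the deposited annotation, with 10 to 300 tested genes. The libraries, lists and terms were chosen with earlier results of these data known, and the set of smaller changes was defined after the data were seen, as were the alternatives for it and for the term medians. No set test was run.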

Additional observations from a re-analysis of the deposited data

How the results depend on the processing

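The DEG count of 531 became 1167 with a fold threshold of 0.58, and 84 by limma with a pseudocount of 1 or 77 with that pseudocount and no filter. It stayed within 1.5 times under RLE size factors, no filter on low counts, DESeq2, the groups compared alone, limma with a pseudocount of 0.1, the replicate block and the muscle covariate. Leaving out 1 library gave 409 to 940. The 0 genes by edgeR at an adjusted p under 0.05 (2978 at an unadjusted p under 0.05) became 5 without a filter, 1021 by DESeq2, 2 and 5 by limma with pseudocounts of 1 and 0.1, 58 with the replicate block, 30 with the muscle covariate, and 0 to 141 leaving out 1 library. The 229 kept genes became 519 with a fold threshold of 0.58, 35, 150 and 31 by limma with pseudocounts of 1, 0.1 and of 1 with no filter, 373 with the replicate block, and 160 to 545 leaving out 1 library. The 60 seen only under AS-IV became 200 with the fold threshold of 0.58, 91 without a filter, 14 and 13 by limma with a pseudocount of 1, with and without its filter, 96 with the muscle covariate, and 52 to 122 leaving out 1 library. A lower fold threshold admits more genes by construction, and a pseudocount of 1 shrinks the fold of genes at low FPKM; the cause of the other shifts was not tested. The correlation across 16874 genes of deviations from the group mean between Sham and AS-IV libraries of 1 replicate number was 0.314, -0.158 and 0.435, so the values had both signs, and Sham replicate 2 did not correlate best with its own number. With the block Cidec (log2FC 0.95), Prg3 (-0.97) and Greb1 (p 0.0655) were not called, and Bmal1 was undetermined (OVX vs Sham p 0.0681). Acta1 (log2FC -1.58, p 0.0112), Fgf23 (-1.09, p 0.0302) and Bhlhe41 (OVX vs Sham log2FC -1.02) met the kept rule with it. In that fit 26 of 28 named kept genes and 13 of 17 named genes seen only under AS-IV had the same class; with the muscle covariate 20 and 16 had it, and by limma with a pseudocount of 1 it was 12 and 6.

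The median log2FC of all genes stayed between -0.03 and 0.01 under the alternatives. Of 1021 values of the 57 named DEGs under alternatives, 0 changed sign; 18 of the 57 stayed past both thresholds in every alternative, 37 in every fit that left out 1 library, 24 by limma with a pseudocount of 1 and 44 with the muscle covariate. Among 38 genes examined after their values were seen, 22 were DEGs and 8 of these stayed so in every alternative. Of 28 named kept genes 14 kept their class whichever library was left out, as did 8 of 17 seen only under AS-IV and 1 of 12 undetermined. Of 396 list medians under alternatives 33 moved beyond the spread between replicates, and of 1836 term medians 152. Changes of sign were limited to genes that were not DEGs, and their cause was not tested. With the muscle covariate, log2FC became Btg2 -0.021, Cd96 -0.12, Csf1r -0.22, Cxcl12 -0.056, Gpx1 -0.040, Ifi27 0.015, Prg4 0.12, Sparc -0.18, Wnt10a -0.49 and Wnt5b -0.13. Leaving out 1 library, log2FC ranged over C1qa -0.20 to 0.18, Cd96 -0.16 to 0.14, Csf1r -0.12 to 0.53, Cxcl12 -0.021 to 0.29, Gfap -1.17 to 1.28, Gpx1 -0.063 to 0.16, Gzmb -1.42 to 3.66, Ifi27 -0.44 to 0.18, Il22ra2 -0.35 to 0.55, Nr4a1 -0.41 to 0.089, Prg4 -1.80 to 0.11, Ptgs2 -0.13 to 0.55, Rspo3 -0.23 to 0.066, Sparc -0.16 to 0.54, Wif1 -0.15 to 0.42, Wnt1 -0.55 to 0.43, Wnt10a -0.32 to 1.05 and Wnt5b -0.018 to 0.23. The 361 smaller changes that were higher became 564 with the muscle covariate and 175 to 541 leaving out 1 library. The 59 lower ones became 112, 104 and 154 by limma with pseudocounts of 1, 0.1 and of 1 with no filter, 127 with the muscle covariate, 38 without a filter, 35 for the groups compared alone and 33 to 106 leaving out 1 library. At 3 libraries a group and this depth, genes under about 1 CPM rest on few counts, and a difference not called is not shown to be absent.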
